A study of Homo sapiens with 24 samples.

Results

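The metallothionein genes examined here were *MT1A*, *MT1E*, *MT1F*, *MT1G*, *MT1H*, *MT1M*, *MT1X* and *MT2A*, 8 genes chosen by symbol among the 39321 genes of a table of raw read counts. 7 of the 8 had a row in the table (*MT1M* did not), 7 had at least 1 count in the A498-labelled libraries, and 3 (*MT2A*, *MT1X* and *MT1F*) had counts in the 786-O-labelled ones. A498 and 786-O are human clear cell renal cell carcinoma (ccRCC) lines. RNA from 24 libraries was sequenced, 3 replicates of 4 groups in each line: cells given a control siRNA (Cnsi), the same with interferon gamma (Cnsi IFNγ), cells given an siRNA pool against *CD274*, the gene of PD-L1 (PD-L1si), and the same with interferon gamma (PD-L1si IFNγ). The siRNA was given at 20 nM 24 hours before IFNγ, which was added at 50 ng/mL for 24 hours. The labels call the silenced cells knockouts, which was read as this siRNA, and they do not say whether replicates were separate cultures, so the p-values below measure the spread between these libraries. Line names rest on the labels alone. The study presents the responses seen here under the opposite line names, so the sets are called A498-labelled and 786-O-labelled throughout.

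Metallothioneins are small, cysteine-rich proteins that bind zinc and copper, and also take up cadmium and other toxic metals. Their genes are switched on by zinc through MTF1, a transcription factor that senses the metal and binds metal response elements in their promoters, and also by glucocorticoids, cytokines and oxidative stress. *MT2A* is the isoform most broadly expressed in human tissues, the *MT1* genes are more restricted, and kidney tubule cells are among the cells known for metallothionein expression. The 8 genes form a cluster on chromosome 16 (GRCh38, chr16:56608584-56684196, 75613 bases), and all are protein-coding.

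In the order of the chromosome, *MT2A* (ENSG00000125148) lay at chr16:56608584-56609497, *MT1E* (ENSG00000169715) at chr16:56625475-56627112, *MT1M* at chr16:56632659-56633981 and *MT1A* (ENSG00000205362) at chr16:56638666-56640087. *MT1F* (ENSG00000198417) followed at chr16:56657731-56660698, *MT1G* (ENSG00000125144) at chr16:56666730-56668065, *MT1H* (ENSG00000205358) at chr16:56669814-56671129 and *MT1X* (ENSG00000187193) at chr16:56682470-56684196. *MT1G* was the 1 gene on the minus strand.

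The coding sequences are shown because the members are so alike that short reads could be shared between them. Each is 183 bases long in the transcripts compared, without the stop codon, 5′ to 3′. For *MT1E*, whose canonical transcript carries a coding sequence of 381 bases, an annotated transcript with 183 was used. Capitals mark bases that differ from *MT2A*, of which *MT1E* has 14, *MT1F* 16 and *MT1X* 14 (GENCODE 44, GRCh38).
MT2A: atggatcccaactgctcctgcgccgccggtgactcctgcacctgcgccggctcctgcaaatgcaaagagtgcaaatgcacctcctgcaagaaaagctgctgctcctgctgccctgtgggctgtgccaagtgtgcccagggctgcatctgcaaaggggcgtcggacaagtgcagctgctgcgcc
MT1E: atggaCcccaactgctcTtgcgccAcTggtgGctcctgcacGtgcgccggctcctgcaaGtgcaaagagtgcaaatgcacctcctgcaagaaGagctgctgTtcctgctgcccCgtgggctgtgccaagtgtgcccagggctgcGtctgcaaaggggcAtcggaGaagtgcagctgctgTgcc
MT1F: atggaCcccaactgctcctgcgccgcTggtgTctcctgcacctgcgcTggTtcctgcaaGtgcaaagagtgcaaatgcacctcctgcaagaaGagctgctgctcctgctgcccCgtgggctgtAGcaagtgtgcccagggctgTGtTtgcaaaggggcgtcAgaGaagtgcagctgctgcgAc
MT1X: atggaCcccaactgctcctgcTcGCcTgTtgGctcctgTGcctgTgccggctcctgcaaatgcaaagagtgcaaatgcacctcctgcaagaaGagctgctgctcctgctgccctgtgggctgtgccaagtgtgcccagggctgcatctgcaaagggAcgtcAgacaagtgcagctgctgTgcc
Between any pair of the 8 members, identity ran from 88.5% (*MT1F* and *MT1X*) to 95.1% (*MT1G* and *MT2A*). Over whole canonical transcripts, every run of 100 bases was unique to its gene for *MT2A*, *MT1E*, *MT1F*, *MT1G*, *MT1A* and *MT1M*, against 96.6% for *MT1H*. For *MT1X* it was 78%, the rest being shared with a long non-coding RNA (ENSG00000259827) that overlaps it on the same strand and has no row in the table. With runs of 50 bases the unique share was 88.9% for *MT2A*, 89.7% for *MT1E*, 93.9% for *MT1F* and 49% for *MT1X*. The reads were 100 bases long and paired, and reads of low mapping quality were not counted, and how many reads the members shared or lost was not tested. By these shares, the counts of *MT1X* are the least certain of the 4 expressed members.

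The promoters of *MT2A* and *MT1X* are shown because these genes had the highest level and the largest changes. Each line gives the 250 bases before the annotated start site on the plus strand (RefSeq, GRCh38.p14), at chr16:56608334-56608583 for *MT2A* and chr16:56682220-56682469 for *MT1X*. Capitals mark the core of the metal response element, searched on both strands as TGCACNC or TGCGCNC.
MT2A: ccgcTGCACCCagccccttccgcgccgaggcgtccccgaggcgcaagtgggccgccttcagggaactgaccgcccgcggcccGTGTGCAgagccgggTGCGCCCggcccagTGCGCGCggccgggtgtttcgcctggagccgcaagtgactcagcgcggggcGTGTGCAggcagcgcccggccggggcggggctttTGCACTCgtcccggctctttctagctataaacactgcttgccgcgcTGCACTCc
MT1X: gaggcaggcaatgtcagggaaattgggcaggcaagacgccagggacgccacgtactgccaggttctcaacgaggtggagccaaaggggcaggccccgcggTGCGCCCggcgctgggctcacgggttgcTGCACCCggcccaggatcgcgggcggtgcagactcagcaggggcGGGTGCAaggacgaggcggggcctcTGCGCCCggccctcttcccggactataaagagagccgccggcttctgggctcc
These stretches held 7 cores in *MT2A* and 4 in *MT1X*. Over the full windows of 300 bases, from 250 before to 50 after the start site, there were 8 in *MT2A*, 4 in *MT1X* and 8 in *MT1H*, the 3 members with an entry among the promoters used. Of all 35116 promoter windows, 29.6% held at least 1 core and 2.3% held 3 or more. The core of the interferon-stimulated response element, searched as GAAA, any 2 bases and GAAA, occurred in none of the 3 (3.57% of all windows). A match of letters does not show that a factor was bound.

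A498-labelled libraries held 19256316 to 27907526 counts and the 786-O-labelled ones 26807875 to 30350461, and line and sequencer cannot be told apart, because the methods give a different instrument for each. *CD274* followed its labels: in the A498-labelled libraries it was at 3.99 to 5.74 CPM (read counts scaled to library size by the TMM method) with Cnsi, 191 to 199 with Cnsi IFNγ, 0.81 to 1.01 with PD-L1si and 26.9 to 28.5 with PD-L1si IFNγ. In the 786-O-labelled ones the same groups held 3.87 to 4.18, 55.7 to 65.8, 1.21 to 1.9 and 30.6 to 32.7 CPM. Of 8 kidney carcinoma markers, 8 had a median over 1 CPM in the A498-labelled libraries and 6 in the 786-O-labelled ones, where *PAX2* was listed at 0. Leukocyte markers (4 of 5 in the table) summed to at most 0.967 CPM and 4 endothelial markers to at most 1.69 CPM in any library, and 5 fibroblast markers to between 2.17 and 13.2 CPM in the A498-labelled libraries and 0.259 and 1.28 in the 786-O-labelled ones. The fibroblast sum moved with the groups in the A498-labelled libraries, at 7.1 to 8.01 CPM with Cnsi, 2.17 to 2.44 with Cnsi IFNγ, 12.8 to 13.2 with PD-L1si, then 2.43 to 3.97 under PD-L1si IFNγ, and its part in the results was not tested. A zero needs care in the 786-O-labelled libraries. Among genes with 1000 or more counts over the A498-labelled libraries, 31.3% of the 4634 whose identifier carried another version number than in GENCODE 44 were at 0 in all 12 786-O-labelled libraries, against 0.244% of the 7795 with the same version. *MT1G* and *MT1H* carry another version, as do *PAX2*, the endothelial marker *VWF* and 3 of the 5 fibroblast markers (*COL1A1*, *COL1A2* and *DCN*), all listed at 0 there. These zeros cannot be read as absence, and the fibroblast and endothelial sums of the sets cannot be compared. *MT1E*, *MT1A*, *MT1F*, *MT1X* and *MT2A* carry the same version.

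Metallothionein RNA was far more abundant in the A498-labelled libraries. Over 12 libraries, *MT2A* averaged 339 CPM there (845 CPM per kilobase of transcript), *MT1E* 141 (189 per kilobase), *MT1F* 13.8 (32.4 per kilobase) and *MT1X* 3.4 (8.41 per kilobase). Per kilobase the order of levels was therefore *MT2A*, *MT1E*, *MT1F*, *MT1X*, and it held within each of the 12 libraries. *MT2A* made up 68% of all member counts and *MT1E* 28.5%, with *MT1F* at 2.78% and *MT1X* at 0.686%.

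In the 786-O-labelled libraries, *MT2A* averaged 29.9 CPM (74.6 per kilobase), *MT1X* 1.11 (2.75 per kilobase) and *MT1F* 0.359 (0.846 per kilobase). *MT2A* held 95.3% of member counts there. The order of *MT1X* and *MT1F* was thus the opposite of that in the A498-labelled libraries, and their ranges over 12 libraries did not overlap (0.613 to 1.68 CPM against 0.23 to 0.555). *MT1E*, second in level in the A498-labelled libraries, had 0 counts in all 12 786-O-labelled libraries. With 3 counts as the floor over the 12 libraries, it was at least 16000-fold higher in the A498-labelled libraries.

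**Figure D1:**
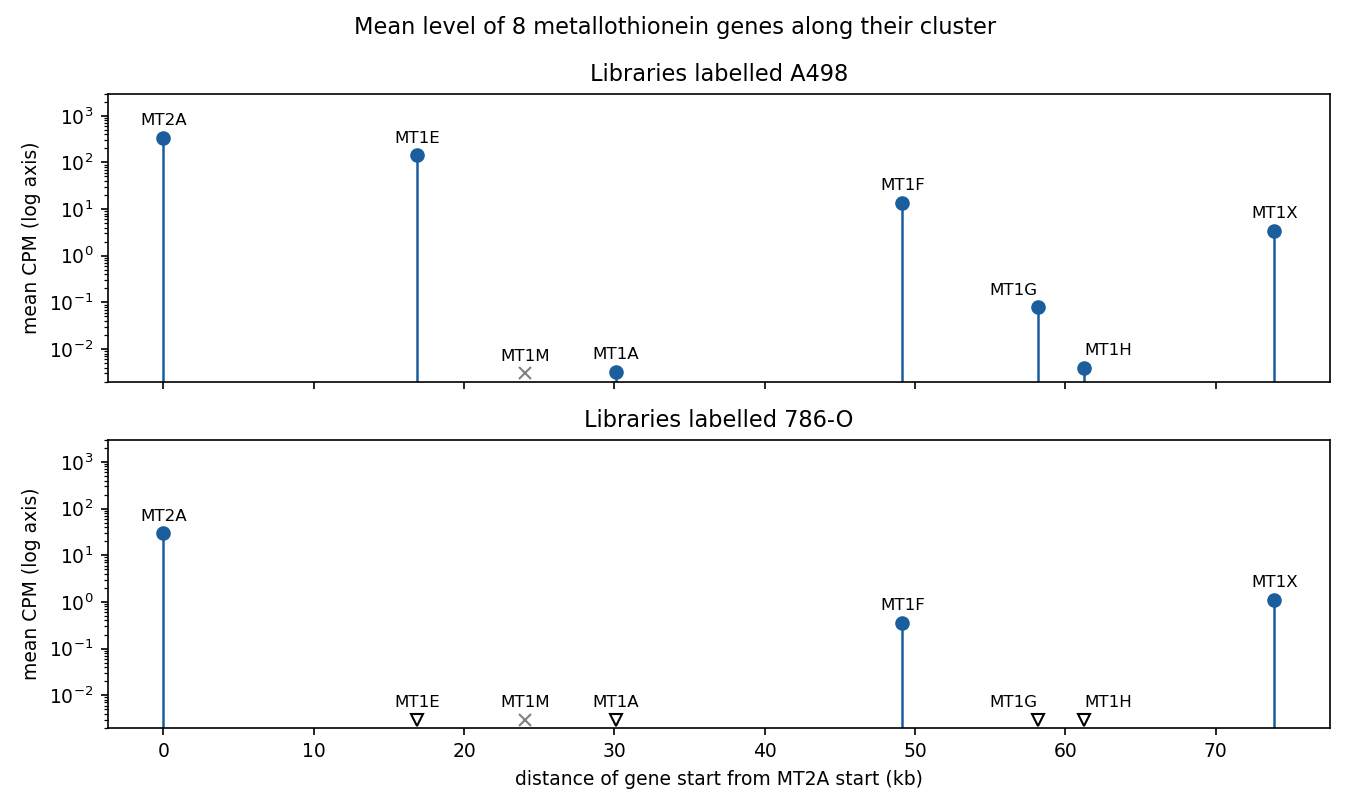
Mean level of the 8 metallothionein genes over 12 libraries per line (vertical axis, CPM on a log axis) against the distance of each gene's start from that of *MT2A* (horizontal axis, kilobases); open triangles mark genes with 0 counts and a cross marks *MT1M*, which has no row. *MT2A* was the highest in both sets, at 339 and 29.9 CPM, and *MT1E* was at 141 CPM in one and at 0 in the other.

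With Cnsi alone and all 24 libraries scaled together, *MT2A* was at 408 ± 23.3 CPM (SD, n = 3) in the A498-labelled libraries and 28.5 ± 3.48 (n = 3) in the 786-O-labelled ones, a ratio of 14.3. The ratio was 52.1 for *MT1F* (17.6 ± 0.71 against 0.337 ± 0.0484 CPM) and 3.08 for *MT1X* (4.61 ± 0.427 against 1.5 ± 0.221 CPM). *MTF1* differed little, at a ratio of 0.957, and *SLC30A1*, the plasma membrane zinc exporter that is itself a target of MTF1, went the other way at 0.41. These ratios are given without a test, since line and sequencer go together, and in bulk RNA a larger number of expressing cells cannot be told apart from more RNA per cell.

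The main change was in the A498-labelled libraries, where PD-L1si went with lower metallothionein RNA. All PD-L1si libraries had the same siRNA pool, so an effect of the pool on other transcripts cannot be told apart from loss of *CD274*. Without IFNγ, *MT2A* was at 332, 346 and 371 CPM with Cnsi and at 187, 205 and 187 with PD-L1si. The groups did not overlap, and *MT2A* fell 1.81-fold (log2 fold change -0.86, SE 0.136, 95% interval -1.17 to -0.55, edgeR adjusted p = 0.00119). *MT1E* was at 152, 155 and 145 CPM against 103, 104 and 94.9, again without overlap, and fell 1.5-fold (log2 fold change -0.58, SE 0.0735, edgeR adjusted p = 8.21e-06).

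*MT1F* was at 15.8, 14.6 and 14.8 CPM with Cnsi and at 9.69, 9.35 and 8.69 with PD-L1si, a 1.63-fold fall (log2 fold change -0.71, SE 0.0846, edgeR adjusted p = 2.09e-08). *MT1X* was at 3.55, 4.06 and 4.27 CPM against 1.66, 1.85 and 1.64, which was the largest fall of the 4, 2.31-fold (log2 fold change -1.21, SE 0.186, edgeR adjusted p = 3.97e-06). The PD-L1si libraries of all 4 genes lay below those of Cnsi, as they did for 24.2% of all genes tested. Calls needed an adjusted p under 0.05 and a log2 fold change above 0.5 or below -0.5. By this rule, 4 of the 5 members tested were lower and 0 higher, against 5.6% of all 20916 genes lower and 2.87% higher (8.48% in either direction). The members were chosen with earlier results of these data known. The levels of these 4 also moved together, so the calls here and under IFNγ are not independent. The median log2 fold change was -0.706 over the 5 members tested and -0.0031 over all genes tested. The summed level of all members was 519 ± 16 CPM (SD, n = 3) with Cnsi and 305 ± 14.4 (n = 3) with PD-L1si.

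The same 4 genes were also lower with PD-L1si under IFNγ. *MT2A* was at 557, 490 and 513 CPM with Cnsi IFNγ and at 328, 225 and 326 with PD-L1si IFNγ, a 1.77-fold fall without overlap (log2 fold change -0.83, SE 0.135, edgeR adjusted p = 0.00126). The library at 225 CPM was also the one with the fewest counts (19256316). Its *MT1E*, at 94.1 CPM against 123 and 112 in the other 2 libraries, was the lowest as well. *MT1E* as a whole fell 1.84-fold from 217, 195 and 195 CPM (log2 fold change -0.88, SE 0.0737, edgeR adjusted p = 5.64e-08).

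*MT1F* went from 18.4, 20.5 and 21 CPM with Cnsi IFNγ to 12.5, 9.97 and 9.84 with PD-L1si IFNγ, a 1.84-fold fall (log2 fold change -0.88, SE 0.0835, edgeR adjusted p = 1.03e-10). *MT1X* went from 7.84, 4.69 and 6.64 CPM to 1.44, 1.11 and 2.04, a 4.13-fold fall (log2 fold change -2.04, SE 0.187, edgeR adjusted p = 1.55e-10). No library of one group reached into the other for any of these 4 genes, which also held for 21.3% of all genes tested in the same direction. The 4 were called lower, as were 5.75% of all genes tested (10.1% in either direction). The fifth member tested, *MT1G*, was also called lower, at 3, 2 and 8 counts with Cnsi IFNγ and 0, 0 and 0 with PD-L1si IFNγ, at least 3.58-fold with 3 counts over the group as the floor. It entered the test through the Cnsi IFNγ group alone, and the call was lost without the library with 8 counts (Cnsi IFNγ replicate 3), with DESeq2 and with another filter.

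**Figure D2:**
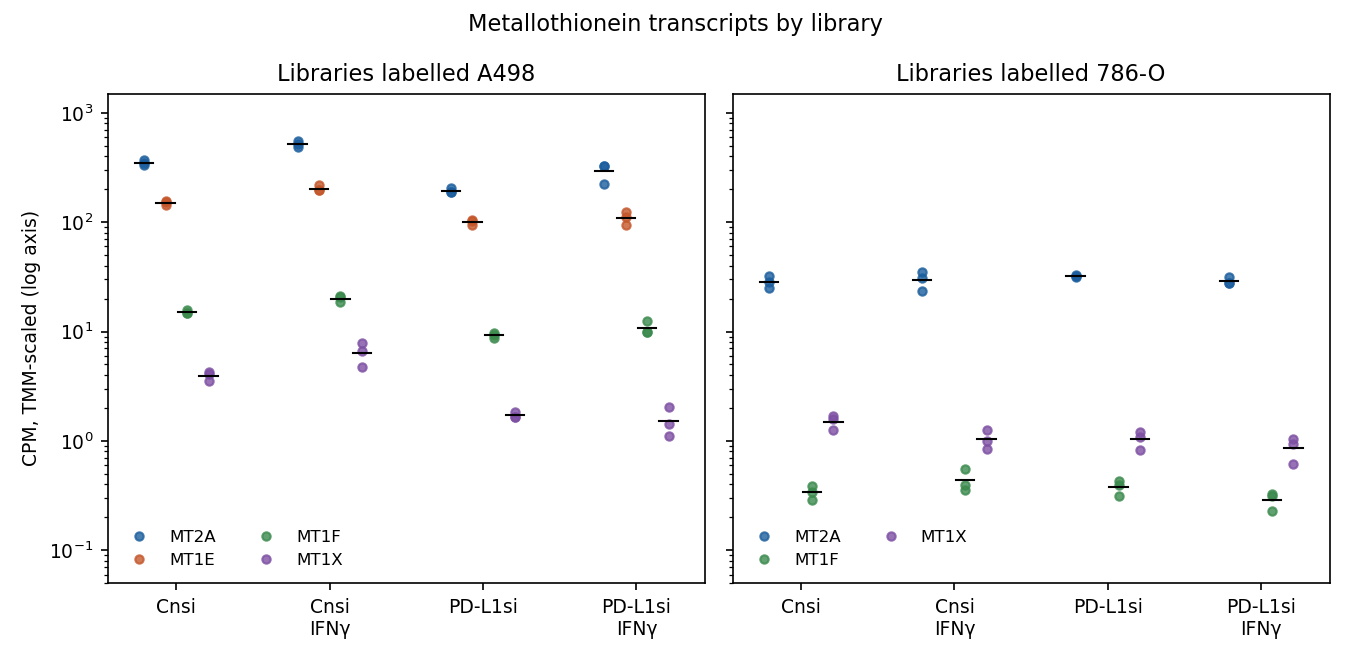
Level of the 4 expressed metallothionein genes in each of 24 libraries (vertical axis, CPM on a log axis) by group (horizontal axis); dots are libraries and black bars the means of 3. In the A498-labelled libraries the PD-L1si dots of each gene sit below the Cnsi dots, with *MT2A* at 187 to 205 against 332 to 371 CPM, while in the 786-O-labelled ones the *MT2A* dots of all groups lie between 23.7 and 35.1 CPM.

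IFNγ, a cytokine of T cells and natural killer cells, raised *MT2A* in the A498-labelled libraries in both siRNA backgrounds. With Cnsi it rose 1.49-fold (log2 fold change 0.57, SE 0.133, edgeR adjusted p = 0.00478), from the 332 to 371 CPM given above to 490 to 557. With PD-L1si it rose 1.52-fold (log2 fold change 0.60, SE 0.137, edgeR adjusted p = 0.00434), from 187 to 205 CPM to 225 to 328. With PD-L1si IFNγ, *MT2A* was at 293 ± 59.1 CPM (SD, n = 3), and with Cnsi and no IFNγ at 350 ± 20.1 (n = 3). These groups differ in both siRNA and IFNγ and were not compared by a test.

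*MT1X* rose 1.6-fold with IFNγ in Cnsi cells (log2 fold change 0.68, SE 0.147, edgeR adjusted p = 0.000153), and its log2 fold change in PD-L1si cells was -0.15 (95% interval -0.64 to 0.33, edgeR adjusted p = 0.603). *MT1E* and *MT1F* passed the adjusted p in Cnsi cells but not the fold threshold, at log2 fold changes of 0.42 (edgeR adjusted p = 6.64e-05) and 0.41 (edgeR adjusted p = 2.04e-05). In PD-L1si cells they were at 0.13 (edgeR adjusted p = 0.15) and 0.23 (edgeR adjusted p = 0.0319). Over 19 other settings these adjusted p-values (edgeR or DESeq2) ran from 0.000103 to 0.683 for *MT1E* and from 0.0106 to 0.425 for *MT1F*. In all, 2 of 5 members tested were called higher with Cnsi and 1 of 5 with PD-L1si. IFNγ changed 36.8% of all genes tested with Cnsi (18.2% higher) and 33.5% with PD-L1si (17.6% higher). With so many genes changed and 5 members tested, nothing is read from these counts about the family.

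The interaction, the IFNγ effect with PD-L1si minus that with Cnsi, was called by edgeR for 0 of 5 members tested in the A498-labelled libraries, while 2.45% of all genes tested were called. *MT1X*, *MT1E* and *MT1G* had an unadjusted p under 0.05, of which *MT1G* passed the filter through the Cnsi IFNγ group alone, and DESeq2 called 1 member, *MT1X*. For *MT1X* the edgeR value was -0.84 (SE 0.28, 95% interval -1.41 to -0.26, adjusted p = 0.0569). Over 19 other settings its adjusted p ran from 0.00459 to 0.142. It passed without Cnsi IFNγ replicate 2 (-1.04, edgeR adjusted p = 0.00459) or without PD-L1si IFNγ replicate 3 (-1.09, edgeR adjusted p = 0.0217), and with DESeq2 (-0.87, adjusted p = 0.0409). *MT1E* was at -0.29 (edgeR adjusted p = 0.0999) and *MT2A* at 0.03 (95% interval -0.40 to 0.47). The adjusted p of *MT1E* (edgeR or DESeq2) also depended on the setting, from 0.000111 to 0.146 over 19 others.

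The proportions of the members to one another are given as a description, with no test. Per library, *MT1X* counts were 1.07% to 1.17% of *MT2A* counts with Cnsi, 0.958% to 1.41% with Cnsi IFNγ, 0.877% to 0.903% with PD-L1si and 0.439% to 0.624% with PD-L1si IFNγ. *MT1E* counts were 39% to 45.9% of *MT2A* counts with Cnsi and 50.6% to 55.1% with PD-L1si, without overlap, and 38% to 39.8% and 34.4% to 41.9% in the groups with IFNγ, which overlapped. Across the 12 A498-labelled libraries, the log2 levels of *MT1E*, *MT1F* and *MT1X* had Pearson correlations with *MT2A* of 0.943, 0.923 and 0.869. These are descriptions, as the points share the same 4 groups and library scaling.

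In the 786-O-labelled libraries, 0 of the 3 members tested were called by edgeR or DESeq2 in any of the 5 comparisons with all libraries. *MT2A* was at 28.5, 24.9 and 32.3 CPM with Cnsi and 23.7, 35.1 and 30.7 with Cnsi IFNγ. The PD-L1si libraries held 32.7, 32.4 and 31.6, and the PD-L1si IFNγ libraries 31.5, 27.7 and 27.7. Every group overlapped with at least one other. Its log2 fold change with IFNγ in Cnsi cells was 0.06 (95% interval -0.22 to 0.34), and with PD-L1si it was 0.17 without IFNγ (-0.11 to 0.45) and -0.04 under IFNγ (-0.33 to 0.24). The last 2 intervals do not reach the -0.86 and -0.83 measured in the A498-labelled libraries. Of all 21209 genes tested, 18.5% were called with IFNγ in Cnsi cells, 18.4% with IFNγ in PD-L1si cells, 2.81% with PD-L1si without IFNγ, 3.03% with PD-L1si under IFNγ and 0.099% in the interaction.

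*MT1X* in these libraries was at 39, 44 and 49 counts with Cnsi and 28, 23 and 32 with Cnsi IFNγ, whereas PD-L1si libraries were at 35, 33 and 25 and PD-L1si IFNγ libraries at 27, 27 and 17. Its log2 fold change was -0.53 with IFNγ in Cnsi cells (unadjusted p = 0.03, edgeR adjusted p = 0.0719) and -0.53 with PD-L1si without IFNγ (unadjusted p = 0.0273, edgeR adjusted p = 0.135), the 2 values with an unadjusted p under 0.05 among these members. The first, whose adjusted p ran from 0.0442 to 0.235 over 19 other settings, was called without Cnsi replicate 1 (-0.65, edgeR adjusted p = 0.0488) or without Cnsi IFNγ replicate 3 (-0.68, edgeR adjusted p = 0.0442). *MT1F* had 6 to 15 counts per library. Its PD-L1si interval under IFNγ (-1.33 to 0.17) included the -0.88 of the other set, whereas that without IFNγ (-0.57 to 0.88) did not include -0.71.

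**Figure D3:**
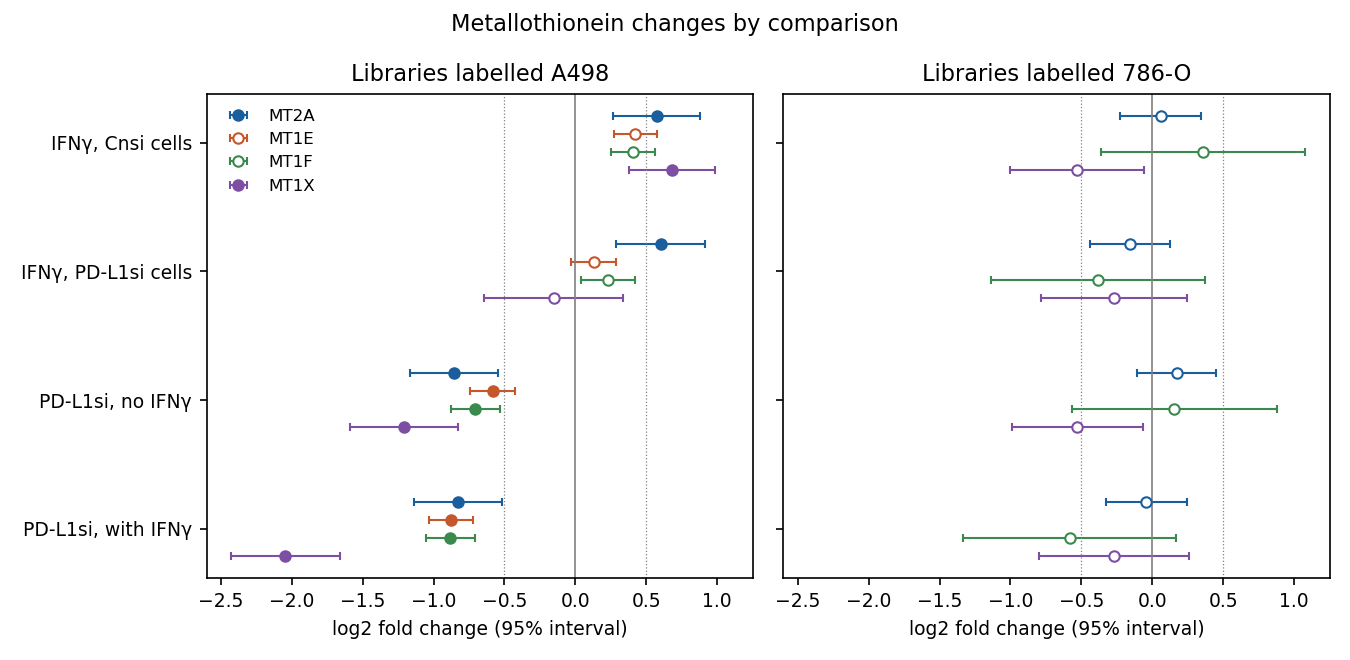
Log2 fold change (horizontal axis, with 95% intervals) of *MT2A*, *MT1E*, *MT1F* and *MT1X* for 4 comparisons (vertical axis) in each set of libraries; filled points passed the call rule, open points did not, and dotted lines mark log2 fold changes of 0.5 and -0.5. The 8 PD-L1si values in the A498-labelled libraries lie between -0.58 and -2.04 and are filled, and all points in the 786-O-labelled ones are open.

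The differences between the sets were tested directly, as the effect in the 786-O-labelled libraries minus that in the A498-labelled libraries, for the 3 members with enough counts in both. The PD-L1si effect without IFNγ on *MT2A* differed by 1.04 on the log2 scale (SE 0.199, edgeR adjusted p = 0.00172), and that under IFNγ by 0.79 (SE 0.201, edgeR adjusted p = 0.0107). For *MT1X* the difference was 1.79 under IFNγ (SE 0.341, edgeR adjusted p = 0.000165) and 0.69 without it (95% interval 0.07 to 1.30, edgeR adjusted p = 0.151). *MT1F* was at 0.87 (edgeR adjusted p = 0.108) and 0.31 (edgeR adjusted p = 0.69). Of the 17999 genes tested in both sets, 4.48% were called without IFNγ (1 of the 3 members) and 5.6% under it (2 of 3).

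The IFNγ effect in Cnsi cells on *MT1X* differed by -1.22 between the sets (SE 0.285, edgeR adjusted p = 0.000454), with log2 fold changes of 0.68 and, in the 786-O-labelled libraries, -0.53. For *MT2A* the difference was -0.52 (SE 0.199, edgeR adjusted p = 0.042), its adjusted p ran from 0.00563 to 0.132 over 31 other settings, and this call was lost when any 1 of 8 libraries was left out, namely replicates 1 and 2 of A498 Cnsi, 1 and 3 of A498 Cnsi IFNγ, 1 and 3 of 786-O Cnsi, and 1 and 3 of 786-O Cnsi IFNγ, with values from -0.54 to -0.38. *MT1F* was at -0.06 (edgeR adjusted p = 0.927). Here 28.4% of all genes tested were called, against 2 of 3 members. *CD274* silencing itself was deeper in the A498-labelled libraries, by 1.06 on the log2 scale without IFNγ (edgeR adjusted p = 0.00189) and by 1.87 under it (edgeR adjusted p = 3.11e-18), and its part in the metallothionein differences was not tested.

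The remaining members had few or no counts. *MT1A* and *MT1H* had 1 count each in all 24 libraries, both in A498-labelled Cnsi IFNγ libraries, and were not tested. *MT1G*, tested in the A498-labelled set alone, had 22 counts, spread over 8 of the 12 A498-labelled libraries. For the members with the same version number, a count of 0 over the 12 786-O-labelled libraries allows a level of up to 0.00879 CPM (3 counts over all libraries), for counting error only. Of 13 further metallothionein genes and pseudogenes, 6 had a row, all of them pseudogenes.

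Among these, *MT2P1*, a processed pseudogene of *MT2A* on chromosome 4, had counts equal to 1.2% to 1.99% of those of *MT2A* in the A498-labelled libraries. It rose with IFNγ in Cnsi cells (log2 fold change 0.92, edgeR adjusted p = 1.37e-06) and fell with PD-L1si under IFNγ (-0.91, edgeR adjusted p = 1.02e-05). 20 of its 134 runs of 50 bases also occur in *MT2A*, and its counts are uncertain for that reason. *MT1L*, a pseudogene inside the cluster between *MT2A* and *MT1E*, went another way with IFNγ. It was at 5.94, 5.21 and 4.7 CPM with Cnsi and 3.27, 3.02 and 3.22 with Cnsi IFNγ. The PD-L1si libraries held 4.23, 5.56 and 5.27, and the PD-L1si IFNγ libraries 2.79, 1.37 and 2.47. It fell with IFNγ (log2 fold change -0.74 with Cnsi, edgeR adjusted p = 4.72e-05, and -1.15 with PD-L1si, edgeR adjusted p = 1.85e-07), while its value with PD-L1si and no IFNγ was -0.08 (95% interval -0.35 to 0.18). With PD-L1si under IFNγ it was at -0.49 (95% interval -0.86 to -0.12, edgeR adjusted p = 0.0352), in the direction of the members. This was under the fold threshold with edgeR, whereas DESeq2 called *MT1L* and the other tested pseudogenes in this comparison (3 of 3). Its Pearson correlation with *MT2A* over the 12 libraries was -0.173. It was at 0 in all 786-O-labelled libraries, with another version number. All of its annotated bases lie within another non-coding gene (ENSG00000291105) that has no row.

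*MT1P3*, on chromosome 20, had 5 to 23 counts per A498-labelled library. It rose with IFNγ in Cnsi cells (log2 fold change 1.39, edgeR adjusted p = 0.000285), fell with PD-L1si under IFNγ (-1.60, edgeR adjusted p = 0.000382), and had an interaction of -1.62 that edgeR called (adjusted p = 0.0495) and DESeq2 did not. Of its 128 runs of 50 bases, 53 (41.4%) were unique to it. It shares 30 with *MT1E* and others with *MT1JP*, *MT1L*, *MT1G* and *MT1F*, so its counts are uncertain. *MT1P1*, *MT1XP1* and *MT1DP* had 6, 6 and 3 counts in the A498-labelled libraries and 17, 5 and 0 in the 786-O-labelled ones, and were not tested.

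No gene next to the cluster passed the call rule. Of 17 other genes annotated within 200 kb of it, 10 had a row and 7 were tested in the A498-labelled libraries. With PD-L1si, 0 of the 7 were called by edgeR or DESeq2 without IFNγ, where 3 had an unadjusted p under 0.05, and 0 under IFNγ, where 4 had. Their log2 fold changes ran from -0.24 (*BBS2*) to 0.10 (*NUDT21*) without IFNγ and from -0.38 (*NUP93*, edgeR adjusted p = 5.71e-09) to 0.88 (*SLC12A3*, at 0.167 CPM) under it. With IFNγ 0 of the 7 were called by either tool (unadjusted p under 0.05 for 4 with Cnsi and 2 with PD-L1si). Of all genes tested, edgeR called 8.48% with PD-L1si without IFNγ and 10.1% under it. With IFNγ it called 36.8% in Cnsi cells and 33.5% in PD-L1si cells. In the 786-O-labelled libraries, 0 of 5 tested neighbours were called by edgeR or DESeq2 in the same comparisons (unadjusted p under 0.05 for 0 of 5 with PD-L1si, and for 4 and 2 with IFNγ).

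Lists of genes that control metallothioneins or handle the same metals were written from general knowledge. Their counts stand beside the shares of all genes tested that edgeR called in either direction. In the A498-labelled libraries these were 36.8% with IFNγ in Cnsi cells, 8.48% with PD-L1si without IFNγ and 10.1% under it. The 786-O-labelled libraries had 18.5%, 2.81% and 3.03%. Of 6 regulators (*MTF1*, *NR3C1*, *STAT3*, *USF1*, *SP1* and *NFE2L2*), 0 were called by edgeR or DESeq2 with PD-L1si in either set, with or without IFNγ. *STAT3*, listed at 0 in the 786-O-labelled libraries, was not tested there, and this zero needs the care described above. An unadjusted p under 0.05 was seen for 2 without IFNγ and 3 under it in the A498-labelled libraries, and for 2 and 1 of 5 tested in the others. *MTF1* was at 32.2, 32.2 and 32.3 CPM with Cnsi and 29.1, 30 and 30.8 with PD-L1si in the A498-labelled libraries (log2 fold change -0.11, edgeR adjusted p = 0.113). Under IFNγ it was at 61.2, 58.4 and 60.9 against 44.2, 43.7 and 43.1, a difference of -0.46 without overlap that passed the adjusted p (7.68e-10, edgeR) but not the fold threshold. In the 786-O-labelled libraries its PD-L1si value was -0.25 without IFNγ (edgeR adjusted p = 0.0321) and -0.14 under it (edgeR adjusted p = 0.275). With IFNγ, 4 of 6 regulators were called higher in Cnsi cells of the A498-labelled set, where 18.2% of all genes tested were called higher. They were led by *USF1* (log2 fold change 1.14), *MTF1* (0.90) and *NFE2L2* (0.78). In the other set 1 of 5 tested, *USF1*, was called higher (1.02).

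*SLC30A1* was called lower with PD-L1si under IFNγ and not without it. In the A498-labelled libraries it was at 40.9, 38.2 and 38.2 CPM with Cnsi and 83, 88 and 79.7 with Cnsi IFNγ, whereas PD-L1si libraries were at 36.5, 40.6 and 39.9 and PD-L1si IFNγ libraries at 52.1, 59.9 and 52.8. PD-L1si lowered it under IFNγ (log2 fold change -0.61, SE 0.0538, edgeR adjusted p = 1.91e-11), its value without IFNγ was -0.01 (95% interval -0.12 to 0.11), and the interaction was called (-0.60, edgeR adjusted p = 1.22e-06). In the 786-O-labelled libraries the PD-L1si values were -0.34 without IFNγ (edgeR adjusted p = 1.3e-05) and -0.41 under it (edgeR adjusted p = 6.31e-07). Both passed the adjusted p but not the fold threshold. Of the 6 zinc exporters tested in the A498-labelled libraries, PD-L1si called 0 without IFNγ (2 with an unadjusted p under 0.05, 0 by DESeq2) and *SLC30A1* alone under it. IFNγ called 1 higher (*SLC30A1*) and 1 lower (*SLC30A5*, -0.70) in Cnsi cells, beside 36.8% of all genes tested. Of 7 tested in the 786-O-labelled libraries, 0 were called with PD-L1si by edgeR or DESeq2 (unadjusted p under 0.05 for 5 without IFNγ and 4 under it).

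Among zinc importers, 1 of 12 tested passed the call rule with PD-L1si in the A498-labelled libraries, lower with and without IFNγ: *SLC39A14* (ZIP14), an importer of zinc and iron. The log2 fold change of *SLC39A14* was -0.99 without IFNγ (SE 0.0418, edgeR adjusted p = 6.81e-20) and -0.77 under it (SE 0.0411, edgeR adjusted p = 4.28e-17), at a mean of 268 CPM, and it rose with IFNγ by 0.57 in Cnsi cells (edgeR adjusted p = 9.31e-15). Of the 12 importers, 9 had an unadjusted p under 0.05 without IFNγ and 7 under it. In the 786-O-labelled libraries it was at -0.28 and -0.23 with PD-L1si, under the fold threshold, and 1 of 10 importers tested was called, *SLC39A5* at a mean of 0.907 CPM, higher under IFNγ (0.84, edgeR adjusted p = 0.0266) but not by DESeq2. With IFNγ in Cnsi cells of the A498-labelled set, 2 importers rose and 4 fell, the largest being *SLC39A10* (-1.45), *SLC39A8* (-1.15) and *SLC39A7* (-1.15). As 36.8% of all genes tested were called there, nothing is read from these counts about importers.

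Copper handling genes, which include the copper transporters and chaperones, numbered 11 tested in the A498-labelled libraries. With PD-L1si 0 were called without IFNγ by edgeR or DESeq2 (6 with an unadjusted p under 0.05) and 1 was lower under it (*SLC31A2*, log2 fold change -0.63, edgeR adjusted p = 9.8e-10). With IFNγ in Cnsi cells 3 rose and 2 fell, led by *SCO2* (1.42), *ATP7A* (-1.05) and *ATP7B* (-0.80). Of 6 metal-inducible genes, *SLC30A1* among them, 0 were called with PD-L1si without IFNγ by edgeR or DESeq2 in the A498-labelled libraries (2 with an unadjusted p under 0.05) and 1, *SLC30A1*, under it. IFNγ raised 2 and lowered 3 of them in Cnsi cells, led by *HSPA1A* (-1.93), *HSPA1B* (-1.49) and *GCLM* (1.25). In the 786-O-labelled libraries 1 of 6 was higher with PD-L1si, *HMOX1*, the haem oxygenase induced by heavy metals, by 1.02 without IFNγ (edgeR adjusted p = 3.02e-14) and 0.93 under it (edgeR adjusted p = 2.69e-13). Of 7 glucocorticoid-inducible genes tested in the A498-labelled libraries, 1 was higher (*SGK1*, 0.98) and 1 lower (*DUSP1*, -0.64) with PD-L1si without IFNγ, and 1 was higher (*FKBP5*, 0.51) and 1 lower (*DUSP1*, -0.51) under it. IFNγ raised 2 and lowered 1 of them in Cnsi cells, led by *CRISPLD2* (-1.74) and *DUSP1* (1.39). As IFNγ called 36.8% of all genes tested in A498-labelled Cnsi cells, nothing is read from its counts in these lists.

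**Figure D4:**
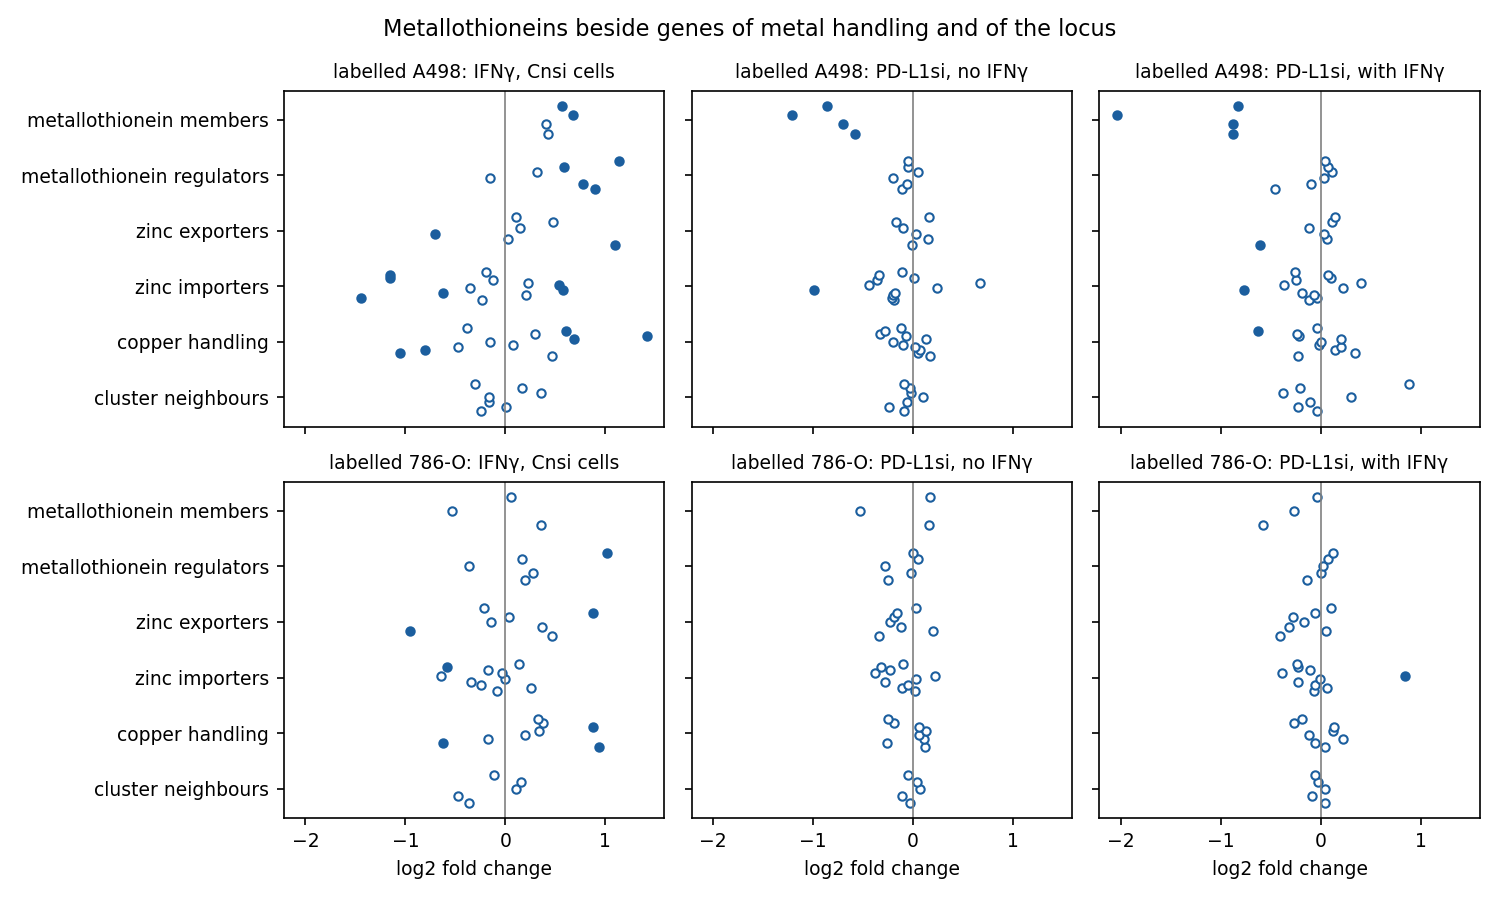
Log2 fold changes (horizontal axis) of tested metallothioneins, their regulators, zinc exporters, zinc importers, copper handling genes and neighbours of the cluster (vertical axis) for 3 comparisons in each set of libraries; each point is a gene, filled where it passed the call rule, and *MT1G* is left out because all its PD-L1si IFNγ counts are 0. With PD-L1si in the A498-labelled libraries, the 4 metallothioneins shown are filled and on the left, beside 1 of 12 zinc importers in each panel. Under IFNγ, 1 of 6 zinc exporters and 1 of 11 copper handling genes are also filled and on the left.

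The genes whose pattern was most like that of *MT2A* were found by the lower of its 2 Pearson correlations, over the 12 libraries of each set, among 12591 genes with a mean of at least 1 CPM in both. They were *MAP4* (0.905 in the A498-labelled libraries and 0.791 in the 786-O-labelled ones), a gene annotated as *GPR84-AS1* (ENSG00000258086; 0.783 and 0.80), *GPR176* (0.897 and 0.72), *PRDM4* (0.716 and 0.698) and *NBPF14* (0.68 and 0.801). Of the other members, *MT1X* alone reached this minimum in both sets and was ranked. The correlation of *MT1X* with *MT2A* was 0.869 in the A498-labelled libraries and -0.04 in the 786-O-labelled ones, where *MT2A* itself varied little (SD of log2 level 0.165 against 0.555).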

How the data were processed

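Raw counts of 24 libraries were analysed. According to the study's methods and the submitters' processing notes, TruSeq Stranded mRNA libraries were sequenced as paired reads, trimmed with Trimmomatic 0.36.6, aligned to GRCh38 with HISAT2 2.1.0 and counted per gene of GENCODE 33 with featureCounts 1.6.3 with a forward strand setting. Values in the deposited table are whole-number counts per gene made by the authors, without normalization. Groups and line names came from the sample labels, and 0 columns had no sample. The 8 members and the gene lists were chosen with earlier results of these data known.

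The models were quasi-likelihood fits of edgeR 4.0.16 under R 4.3.3 (TMM scaling, robust, legacy form), with the 12 libraries of a line in one model and all 24 in another for differences between lines. Genes with at least 10 counts summed over the 3 libraries of a group were tested (20916 for A498, 21209 for 786-O and 17999 passing in both). Adjusted p-values are Benjamini-Hochberg values over all genes tested, and the call rule was an adjusted p under 0.05 with a log2 fold change above 0.5 or below -0.5. Total counts ran from 19256316 to 30350461 per library, and no pair of replicates was as close as counting noise (chi-square per degree of freedom 1.63 to 24.3). Gene positions and lengths came from GENCODE 44 on GRCh38, and promoters from RefSeq. The fit was tested on simulated data. Named genes were the 8 members, *CD274*, *MTF1*, *SLC30A1*, other metallothionein genes with counts, up to 3 called genes of each list with the largest change, and the 5 genes most like *MT2A*. Neighbours are the ends of their range, and the regulators and *PAX2* were named beyond this rule after their values were seen. Alternatives were a replicate block, DESeq2 1.42.0, RLE scaling, other filters, protein-coding genes alone, other thresholds, no robust estimation and leaving out each library.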

Additional observations from a re-analysis of the deposited data

Results flagged for a closer look

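5 differences between the libraries labelled 786-O and those labelled A498 passed the edgeR test of the difference itself and are listed for that reason. The IFNγ effect in Cnsi cells was lower in the libraries labelled 786-O for *MT2A* by a log2 value of -0.52 (edgeR adjusted p = 0.042, but 0.0653 with the replicate block and 0.0532 to 0.132 when 1 of 8 of the 12 libraries with Cnsi was left out) and for *MT1X* by -1.22 (edgeR adjusted p = 0.000454). The PD-L1si effect without IFNγ was higher there for *MT2A* by 1.04 (edgeR adjusted p = 0.00172). Under IFNγ it was higher for *MT2A* by 0.79 (edgeR adjusted p = 0.0107) and for *MT1X* by 1.79 (edgeR adjusted p = 0.000165). Line and sequencer cannot be told apart in these values.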

How the results depend on the processing

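The fall of *MT2A*, *MT1E*, *MT1F* and *MT1X* with PD-L1si in the libraries labelled A498 kept its direction and its call under the replicate block, DESeq2, RLE scaling, every filter, no robust estimation and each library left out. The replicate numbers did not pair the libraries, as 1 of 18 pairs with the same number correlated over 0.1 in the libraries labelled A498 and 5 of 18 in those labelled 786-O, so the block is an alternative only. With the block, the interaction called 1 member in the libraries labelled A498 in place of 0 (*MT1X*, adjusted p = 0.0303), the IFNγ difference between the sets called 1 in place of 2 (*MT2A*, adjusted p = 0.0653), and no other call on a member changed. The interaction also called 1 with DESeq2, with no filter (adjusted p = 0.00886) and among protein-coding genes alone (adjusted p = 0.0477).

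With the adjusted p alone, IFNγ called 4 members with Cnsi and 2 with PD-L1si in the libraries labelled A498, where it called 61.3% and 58.5% of all genes tested. With a log2 fold change over 1, IFNγ called 0 and 0, PD-L1si 1 without IFNγ and 2 under it, and the differences between the sets 1 for IFNγ and 1 for PD-L1si under IFNγ. The shares of all genes tested were, in this order, 17.5%, 15.3%, 2.64%, 2.87%, 11.9% and 1.59%. The members called with PD-L1si under IFNγ at this threshold were *MT1X* and *MT1G*. *MT1G*, at 13 counts against 0, entered the test through the Cnsi IFNγ group alone, so its fitted fold is not read. Leaving out each library, the number called in the libraries labelled A498 ran from 2 to 2 for IFNγ with Cnsi, 1 to 1 for IFNγ with PD-L1si, 4 to 4 for PD-L1si without IFNγ, 4 to 5 under it and 0 to 1 for the interaction. In the libraries labelled 786-O it ran from 0 to 1 for IFNγ with Cnsi, and from 0 to 0 for the other comparisons. The differences between the sets ran from 1 to 2 for IFNγ, 1 to 1 for PD-L1si without IFNγ and 2 to 2 under it. For single genes, 984 of 1028 values kept their direction and side of the threshold. 13 changed sign, each an uncalled value near 0 with 1 library left out. Over all libraries left out in turn, these ran from -0.27 to 0.061 for *MT1F* in the IFNγ difference between the sets (0.05 and 0.01 for the other sign changes), from -0.40 to 0.013 for *MT1X* with IFNγ in A498-labelled PD-L1si cells, from -0.067 to 0.19 for *MT2A* in the A498 interaction (-0.05, -0.03, -0.02, -0.01 and -0.01 for the other sign changes), from -0.073 to 0.21 for *MT2A* with IFNγ in 786-O-labelled Cnsi cells (-0.03 for the other sign change) and from -0.19 to 0.091 for *MT2A* with PD-L1si under IFNγ in the same set. Beyond a changed threshold or a missing library, the cause was not tested.

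Depth limits the low members. *MT1F* and *MT1X* in the libraries labelled 786-O, *MT1G*, *MT1H* and *MT1A* rest on too few counts for small differences to be detected. Zeros of *MT1G* and *MT1H* in the libraries labelled 786-O cannot be read as absence, and line and sequencer cannot be told apart.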
